A study of Mus musculus with 16 samples.

Results

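The genes described here are 34 enzymes, regulators and carriers of cholesterol and fatty acid synthesis, taken by gene symbol from the deposited tables. All 34 were found among the 30385 gene entries, and all 34 were among the 16835 entries that passed the filter on low counts. They form a sterol branch of 21 genes, which holds 17 enzymes of the mevalonate and sterol route and 4 genes of regulation and transport, and a fatty acid branch of 13 genes. Polyadenylated RNA of immortalized mouse epicardial cells, which derive from the outer cell layer of the heart, was sequenced. The mt line is Tgfbr3-/-:Immorto and the wt line is Tgfbr3+/+:Immorto, both isolated at E11.5 on a C57BL/6 SV129 mixed background. Tgfbr3 encodes betaglycan, a co-receptor that binds TGF-beta ligands, TGFB2 above all, and hands them to the signalling receptors. Each line received 250 pM TGFB1, 250 pM TGFB2, 5 nM BMP2 or vehicle for 72 h, with 2 libraries per group, 8 groups and 16 libraries in all. Every group carried the Immorto T antigen. The experiment was run at 37 °C, to switch the T antigen off, in medium without ITS (insulin-transferrin-selenium) and interferon γ. T antigen levels were not examined here. There was 1 line per genotype, so genotype and clone cannot be told apart. The labels do not say whether the duplicates were separate cultures, so the p-values measure only the spread between these samples, which may be technical. In bulk RNA, fewer cells of a type and less RNA per cell cannot be told apart.

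As background, the sterol branch is driven by SREBP-2, the product of Srebf2, a membrane-bound transcription factor that is released by proteolysis when cells are poor in sterol and that switches on genes of cholesterol synthesis and uptake. Insig1 encodes the protein that holds the SREBP precursors in the endoplasmic reticulum when sterol is plentiful. SREBP-1, from Srebf1, acts mainly on fatty acid synthesis and desaturation, while the liver X receptors answer to oxysterols and raise the cholesterol exporters Abca1 and Abcg1. In epicardial cells TGF-beta ligands are known for the loss of epithelial character and the gain of smooth muscle features.

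Library totals ran from 6.41 to 31.81, in units of 1000000 reads. Levels are given as CPM, that is reads per 1000000 after TMM scaling, always for replicate 1 and then replicate 2 of a group. Tgfbr3 lay at 9.73 to 18.2 CPM in the 8 mt libraries and at 32.5 to 100.3 CPM in the 8 wt libraries, and the sources used here do not say which exons are missing from the mutant gene. Of 12 epicardial markers, 11 averaged at least 1 rpm over the BMP2 and vehicle libraries of either line, the exception being Dmkn, at 0.331 rpm or less in all libraries. The summed epicardial markers moved with TGFB, at 774 to 993 rpm in the 4 mt TGFB libraries against 3567 to 3989 rpm in the 4 mt BMP2 and vehicle libraries. In wt cells the sum was 1215 to 1501 rpm against 3678 to 3844 rpm. Aldh1a2 went the other way, at 14.3 to 21.2 rpm with TGFB against 5.28 to 7.05 rpm without it in mt cells and 24.5 to 55.8 rpm against 13.9 to 21.6 rpm in wt cells, and Msln was at 420 to 531 rpm against 362 to 426 rpm in wt cells. The list of 14 cardiomyocyte markers summed to 182 to 298 rpm in mt TGFB against 64.9 to 213 rpm in mt BMP2 and vehicle libraries, and to 659 to 899 rpm against 157 to 410 rpm in wt cells. Most of that sum was Tnnt2, at 128 to 204 rpm against 50.7 to 127 rpm in mt and 640 to 883 rpm against 131 to 393 rpm in wt cells. The 4 mt libraries of replicate 1 stand apart in the other markers of the list: all 14 averaged at least 1 rpm there, against 5 to 6 in the other sets of 4. A subset of 6 picked for this contrast, Myh6, Myh7, Myl2, Myl3, Actc1 and Nppa, summed to 46.0 to 94.2 rpm in those 4 libraries and to 0.323 to 1.56 rpm in the other 12. The 8 endothelial markers also moved with TGFB, at 14.8 to 25.3 rpm against 30.1 to 48.8 rpm in mt cells and 22.2 to 30.3 rpm against 48.2 to 91.3 rpm in wt cells, with 2 to 3 markers at 1 rpm or more. Kdr and Tek carried most of it, while Pecam1, Cdh5 and Erg were at 1.35 rpm or less in every library. The 8 adipocyte markers summed to 9.06 to 13.5 rpm against 10.7 to 13.9 rpm in mt and 10.1 to 14.4 rpm against 13.6 to 17.9 rpm in wt cells, with 1 to 2 at 1 rpm or more. The 9 macrophage and blood markers of the table summed to 22.4 to 28.6 rpm against 18.7 to 35.4 rpm in mt and 21.6 to 37.5 rpm against 11.2 to 23.1 rpm in wt cells, with 1 to 3 at 1 rpm or more. The 6 hepatocyte markers summed to 1.19 to 2.14 rpm against 1.08 to 1.94 rpm in mt and 1.60 to 2.18 rpm against 0.95 to 1.28 rpm in wt cells, with 0 to 1 at 1 rpm or more. Of the defining markers of these types, Fgb had 0 reads in all libraries, and Adipoq, Plin1, Lep, Alb, Ptprc and Emr1 were at 0.231 rpm or less. Other markers of the same lists were present. Lipe, at 8.28 to 16.1 rpm, carried most of the adipocyte sum. Cd68, at 8.82 to 35.5 rpm, carried most of the macrophage and blood sum. Fabp4 reached 2.79 rpm, Csf1r 5.16 rpm, Alas2 5.93 rpm and Apoa2 1.93 rpm. The part of these markers in the results on lipid genes was not tested. Libraries of the same replicate number deviate together, so a test with the replicate number as a block, called blocked here, is given where it changes a call.

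The promoters of 4 genes are shown because they stand for the patterns described here. Hmgcs1 and Srebf2 fell with TGFB in both lines. In the test without the replicate block, Hsd17b7 is the sterol enzyme that rose, in mt cells. Lpin1 is the fatty acid branch gene that rose in that test, in wt cells. Each window runs from 250 bases before to 50 bases after the transcription start in RefSeq on GRCm38.p6, written 5′ to 3′ along the gene. Capitals mark matches, on either strand, to the sterol regulatory element letters TCACNCCAC, the CCAAT box (CCAAT, or ATTGG on the other strand), the GC box (GGGCGG, or CCGCCC) and the E-box CACGTG.
Hmgcs1, chr13:119690101-119690400, plus strand: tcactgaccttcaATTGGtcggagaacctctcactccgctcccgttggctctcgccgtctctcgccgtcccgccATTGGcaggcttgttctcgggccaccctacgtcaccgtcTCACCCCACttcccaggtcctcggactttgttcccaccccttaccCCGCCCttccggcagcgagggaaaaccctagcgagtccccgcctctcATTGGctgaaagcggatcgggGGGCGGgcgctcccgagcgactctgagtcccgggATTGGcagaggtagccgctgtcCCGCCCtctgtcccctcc
Srebf2, chr15:82147019-82147318, plus strand: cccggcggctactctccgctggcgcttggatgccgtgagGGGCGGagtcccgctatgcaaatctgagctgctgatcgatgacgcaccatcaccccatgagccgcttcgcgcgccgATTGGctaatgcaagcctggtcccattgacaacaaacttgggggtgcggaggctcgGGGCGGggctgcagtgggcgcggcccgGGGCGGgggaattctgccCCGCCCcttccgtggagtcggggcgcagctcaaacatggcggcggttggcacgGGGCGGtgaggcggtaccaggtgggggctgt
Hsd17b7, chr1:169969156-169969455, minus strand: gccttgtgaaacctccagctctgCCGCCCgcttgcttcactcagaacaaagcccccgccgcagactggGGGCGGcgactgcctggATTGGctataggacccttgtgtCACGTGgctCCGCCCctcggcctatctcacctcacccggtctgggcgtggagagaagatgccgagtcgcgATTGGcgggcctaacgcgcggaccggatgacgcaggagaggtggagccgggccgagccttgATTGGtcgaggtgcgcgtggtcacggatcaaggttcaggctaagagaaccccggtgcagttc
Lpin1, chr12:16610917-16611216, minus strand: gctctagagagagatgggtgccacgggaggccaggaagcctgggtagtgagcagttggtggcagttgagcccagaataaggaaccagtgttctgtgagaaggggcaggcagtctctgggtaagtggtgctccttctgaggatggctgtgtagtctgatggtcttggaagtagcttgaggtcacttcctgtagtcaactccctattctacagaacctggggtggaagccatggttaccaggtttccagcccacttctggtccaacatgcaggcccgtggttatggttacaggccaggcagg
The Hmgcs1 window holds 1 sterol regulatory element match, whose first base lies at -137 with the transcription start as 0, beside 4 CCAAT boxes and 3 GC boxes. The Srebf2 window holds 1 CCAAT box and 5 GC boxes, the Hsd17b7 window 3 CCAAT boxes, 3 GC boxes and 1 E-box, and the Lpin1 window no match to the 4 motifs.

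A RefSeq promoter was found for 27 of the 34 genes, 17 of the sterol and 10 of the fatty acid branch, with 33 windows in all. A gene counts as matched if any of its windows holds the letters. The CCAAT box was present in 15 of the 17 sterol genes (88.2%) and in 6 of the 10 fatty acid genes (60.0%). It was present in 41.1% of all 27025 genes with a RefSeq promoter and in 42.9% of the 9714 of them tested here. The GC box was in 16 of 17 sterol (94.1%) and 5 of 10 fatty acid genes, against 68.6% of those 9714 genes. TCACNCCAC was found in Hmgcs1 alone of the 27, while 1.45% of those 9714 genes hold it. The E-box was in 5 of 17 sterol genes and in 1 of 10 fatty acid genes, against 11.6%. A match is a description of letters and not a bound site, and a window with no match shows only that these letters are not in it.

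Exposure to TGFB1 or TGFB2 lowered a part of the sterol branch in both lines, and Srebf2, Hmgcs1, Sqle and Stard4 fell with both ligands in both. In mt cells 4 of the 21 sterol genes fell and 1, Hsd17b7, rose with either ligand. In wt cells 9 of 21 fell and none rose with either ligand. Called here means an adjusted p under 0.05 in the edgeR quasi-likelihood test over the 16835 genes. The background is the share of all genes tested that were called: lower calls made up 8.45% with TGFB1 and 9.25% with TGFB2 in mt cells, and 8.21% with TGFB1 and 9.03% with TGFB2 in wt cells. Higher calls made up 7.97% and 8.17% in mt cells, and 10.8% and 11.1% in wt cells, in the same order of ligands. The median log2 fold change of the 21 sterol genes was -0.34 with TGFB1 and -0.15 with TGFB2 in mt cells, where the medians of all genes tested were -0.01 and -0.01. In wt cells the median was -0.84 with TGFB1 and -0.63 with TGFB2, with medians over all genes of -0.01 and 0.02. Both ligands are set against the same vehicle libraries within a line, so their values are not independent of each other.

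**Figure D1:**
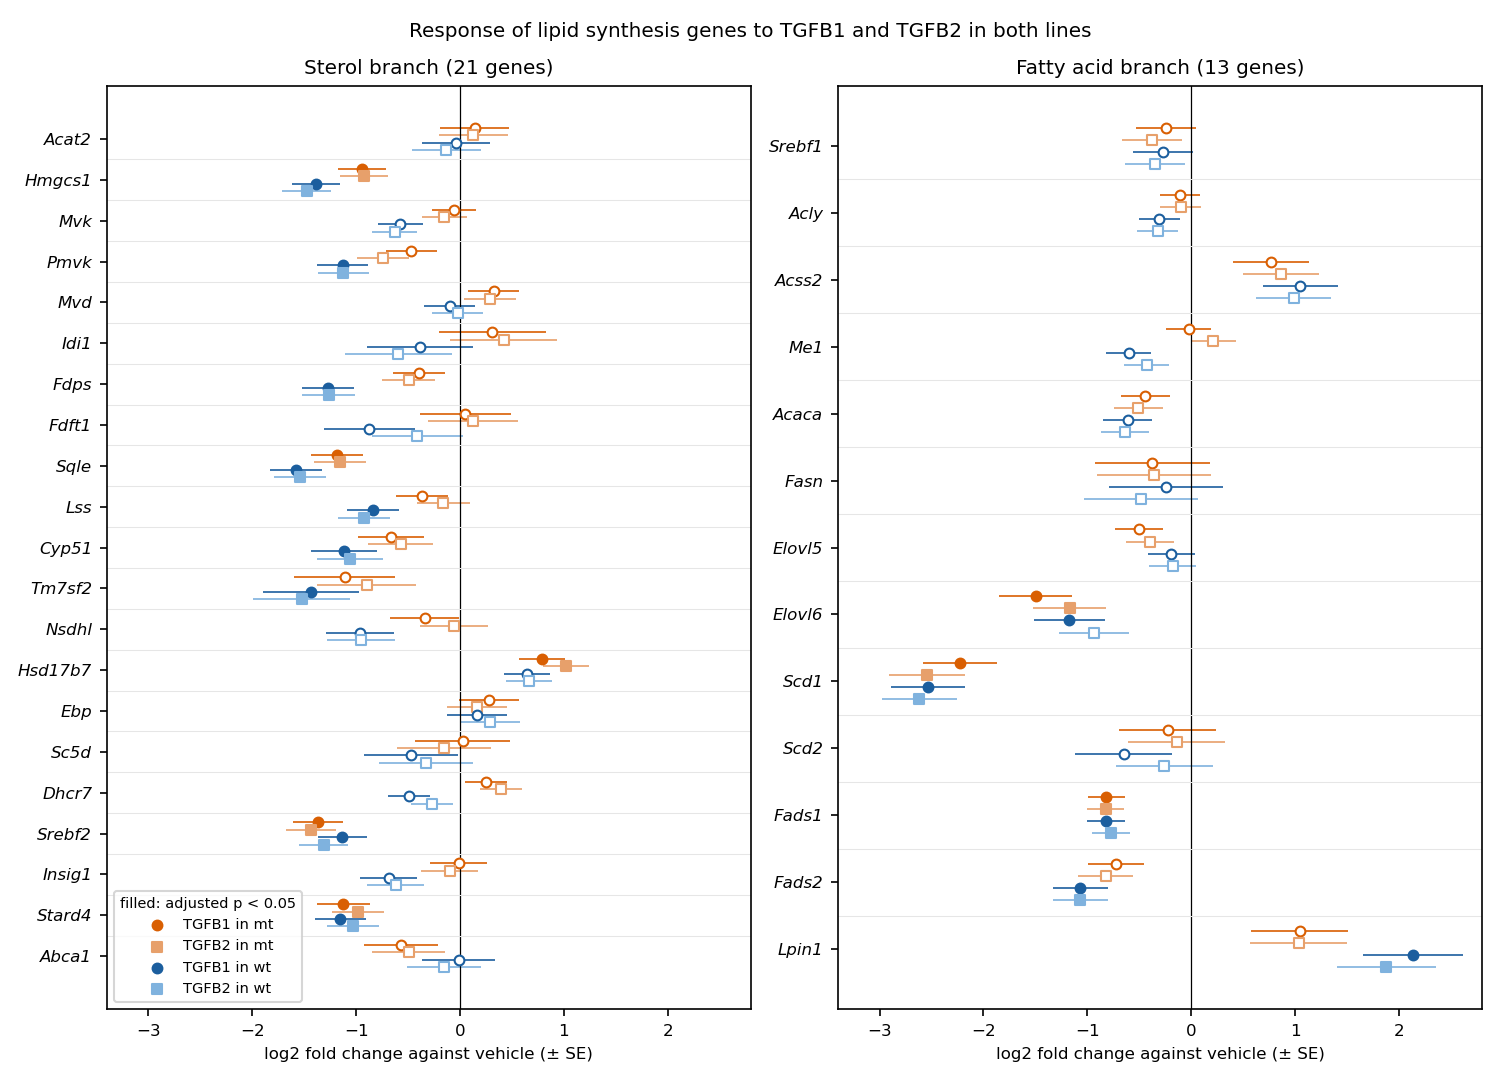
Log2 fold change (± SE) against vehicle for each of the 34 genes, with TGFB1 as circles and TGFB2 as squares, mt cells in orange shades and wt cells in blue shades, and filled symbols for an adjusted p under 0.05 (n = 2 libraries per group). Scd1 lies furthest to the left, at -2.23 to -2.62, and Lpin1 furthest to the right, at 1.04 to 2.13.

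Among the regulators, Srebf2, the gene of SREBP-2, lies on chromosome 15 from 81977698 to 82035390 (build mm9, plus strand, as deposited). In mt cells Srebf2 had 56.7 and 37.0 CPM with TGFB1, 47.8 and 41.5 CPM with TGFB2, 98.5 and 90.1 CPM with BMP2, and 132 and 109 CPM in vehicle. In wt cells Srebf2 had 85.0 and 75.5 CPM with TGFB1, 70.1 and 71.8 CPM with TGFB2, 208 and 156 CPM with BMP2, and 186 and 167 CPM in vehicle. All 4 TGFB libraries of each line were below all 4 BMP2 and vehicle libraries of that line. The log2 fold change was -1.37 ± 0.24 (SE, n = 2 per group, adjusted p = 0.0024) with TGFB1 and -1.43 ± 0.24 (adjusted p = 0.0017) with TGFB2 in mt cells. For Srebf2 in wt cells the log2 fold change was -1.13 ± 0.24 (adjusted p = 0.0055) with TGFB1, which became 0.056 without wt TGFB1 replicate 2, and -1.31 ± 0.24 (adjusted p = 0.0022) with TGFB2. The microRNA entry Mir33, which lies within Srebf2, had 3 reads over the 16 libraries against 29910 for Srebf2.

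Insig1, which retains the SREBP precursors, was not called with TGFB in either line. It had 48.3 and 45.2 CPM with TGFB1, 48.0 and 40.4 CPM with TGFB2, 35.6 and 55.7 CPM with BMP2, and 37.3 and 57.0 CPM in vehicle in mt cells. In wt cells Insig1 had 58.5 and 53.7 CPM with TGFB1, 59.6 and 58.1 CPM with TGFB2, 63.7 and 90.3 CPM with BMP2, and 79.1 and 101 CPM in vehicle. The mt groups overlapped, while all 4 wt TGFB libraries lay below the other 4 wt libraries. Its log2 fold change in wt cells was -0.69 ± 0.27 with TGFB1 (adjusted p = 0.11, blocked 0.031) and -0.62 ± 0.27 with TGFB2 (adjusted p = 0.14, blocked 0.049). In mt cells the values were -0.01 ± 0.27 and -0.10 ± 0.27.

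Of the enzymes that make the isoprenoid precursors, Hmgcs1, the cytosolic synthase that makes HMG-CoA, fell in both lines. In mt cells Hmgcs1 had 22.03 and 19.3 CPM with TGFB1, 21.1 and 20.8 CPM with TGFB2, 31.0 and 43.3 CPM with BMP2, and 34.6 and 44.7 CPM in vehicle. In wt cells Hmgcs1 had 25.2 and 25.2 CPM with TGFB1, 21.8 and 25.4 CPM with TGFB2, 69.4 and 52.8 CPM with BMP2, and 58.4 and 73.1 CPM in vehicle. The TGFB libraries of both lines were close to each other, between 19.3 and 25.4 CPM, and below every BMP2 and vehicle library. In mt cells the log2 fold change was -0.94 ± 0.23 (adjusted p = 0.016) with TGFB1 and -0.92 ± 0.23 (adjusted p = 0.017) with TGFB2. These mt calls were lost without mt TGFB1 replicate 2 (adjusted p = 0.12), mt vehicle replicate 2 (0.10 with either ligand), mt TGFB2 replicate 1 (0.089) or mt TGFB2 replicate 2 (0.11). For Hmgcs1 in wt cells the log2 fold change was -1.39 ± 0.23 (adjusted p = 0.0016) with TGFB1 and -1.48 ± 0.23 (adjusted p = 0.0010) with TGFB2, and it stayed called without any 1 of the libraries compared. The deposited entry lies on an unplaced segment of chromosome 13 in mm9 and spans 211527 bases with 4 other entries inside it, so its reads could be shared with them, since no source used here gives the counting rules.

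Pmvk, phosphomevalonate kinase, and Fdps, farnesyl diphosphate synthase, were called in wt cells and not in mt cells. Pmvk had 8.89 and 13.1 CPM with TGFB1, 7.42 and 10.7 CPM with TGFB2, 17.5 and 19.3 CPM with BMP2, and 13.7 and 16.8 CPM in vehicle in mt cells. In wt cells Pmvk had 10.4 and 12.5 CPM with TGFB1, 10.99 and 12.01 CPM with TGFB2, 21.2 and 22.4 CPM with BMP2, and 25.8 and 24.4 CPM in vehicle. The TGFB libraries of each line were below its other libraries. Its log2 fold changes were -0.47 ± 0.25 (adjusted p = 0.23) and -0.74 ± 0.25 (adjusted p = 0.060, blocked 0.0083) in mt cells, against -1.13 ± 0.25 (adjusted p = 0.0071, 0.075 without wt TGFB1 replicate 1) and -1.12 ± 0.25 (adjusted p = 0.0071, 0.066 without wt TGFB2 replicate 1) in wt cells, TGFB1 before TGFB2. Fdps had 15.7 and 11.9 CPM with TGFB1, 13.1 and 12.7 CPM with TGFB2, 15.98 and 21.1 CPM with BMP2, and 21.0 and 15.3 CPM in vehicle in mt cells. In wt cells Fdps had 14.2 and 10.97 CPM with TGFB1, 12.3 and 12.9 CPM with TGFB2, 27.6 and 19.9 CPM with BMP2, and 30.8 and 29.8 CPM in vehicle. Treated and untreated libraries overlapped in mt cells and did not in wt cells. Fdps changed by -1.27 ± 0.25 with TGFB1 (adjusted p = 0.0043, 0.054 without wt TGFB1 replicate 2) and -1.26 ± 0.25 with TGFB2 (adjusted p = 0.0042) in wt cells, and had values of -0.40 ± 0.25 and -0.50 ± 0.25 in mt cells.

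The other genes of this stretch, Acat2, Mvk, Mvd and Idi1, were not called with either ligand in either line. Mvk, mevalonate kinase, had log2 fold changes of -0.57 ± 0.21 and -0.63 ± 0.22 in wt cells (adjusted p = 0.087 and 0.060), with blocked values of 0.018 and 0.011, and -0.06 ± 0.22 and -0.15 ± 0.22 in mt cells. Acat2, Mvd and Idi1 lay between -0.59 and 0.42 in all 4 comparisons.

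From squalene onward, Sqle, the squalene epoxidase that catalyses a rate-limiting step, fell in both lines. In mt cells Sqle had 13.6 and 10.2 CPM with TGFB1, 13.4 and 10.8 CPM with TGFB2, 19.5 and 31.4 CPM with BMP2, and 24.2 and 29.7 CPM in vehicle. In wt cells Sqle had 16.5 and 16.4 CPM with TGFB1, 18.2 and 15.6 CPM with TGFB2, 42.5 and 40.6 CPM with BMP2, and 48.5 and 49.7 CPM in vehicle. No TGFB library of either line reached the lowest BMP2 or vehicle library of its line, and the duplicates of the wt groups lay close together. The log2 fold change was -1.18 ± 0.25 (adjusted p = 0.0070) with TGFB1 and -1.16 ± 0.25 (adjusted p = 0.0072) with TGFB2 in mt cells, and the adjusted p became 0.084 when mt TGFB1 replicate 2 was left out and 0.087 when mt TGFB2 replicate 2 was. For Sqle in wt cells the log2 fold change was -1.58 ± 0.25 (adjusted p = 0.0011), a 2.99-fold lower level, with TGFB1 and -1.54 ± 0.25 (adjusted p = 0.0011) with TGFB2, called without any 1 of the libraries compared. The entry lies on chromosome 15 from 59146646 to 59162748 (mm9).

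**Figure D2:**
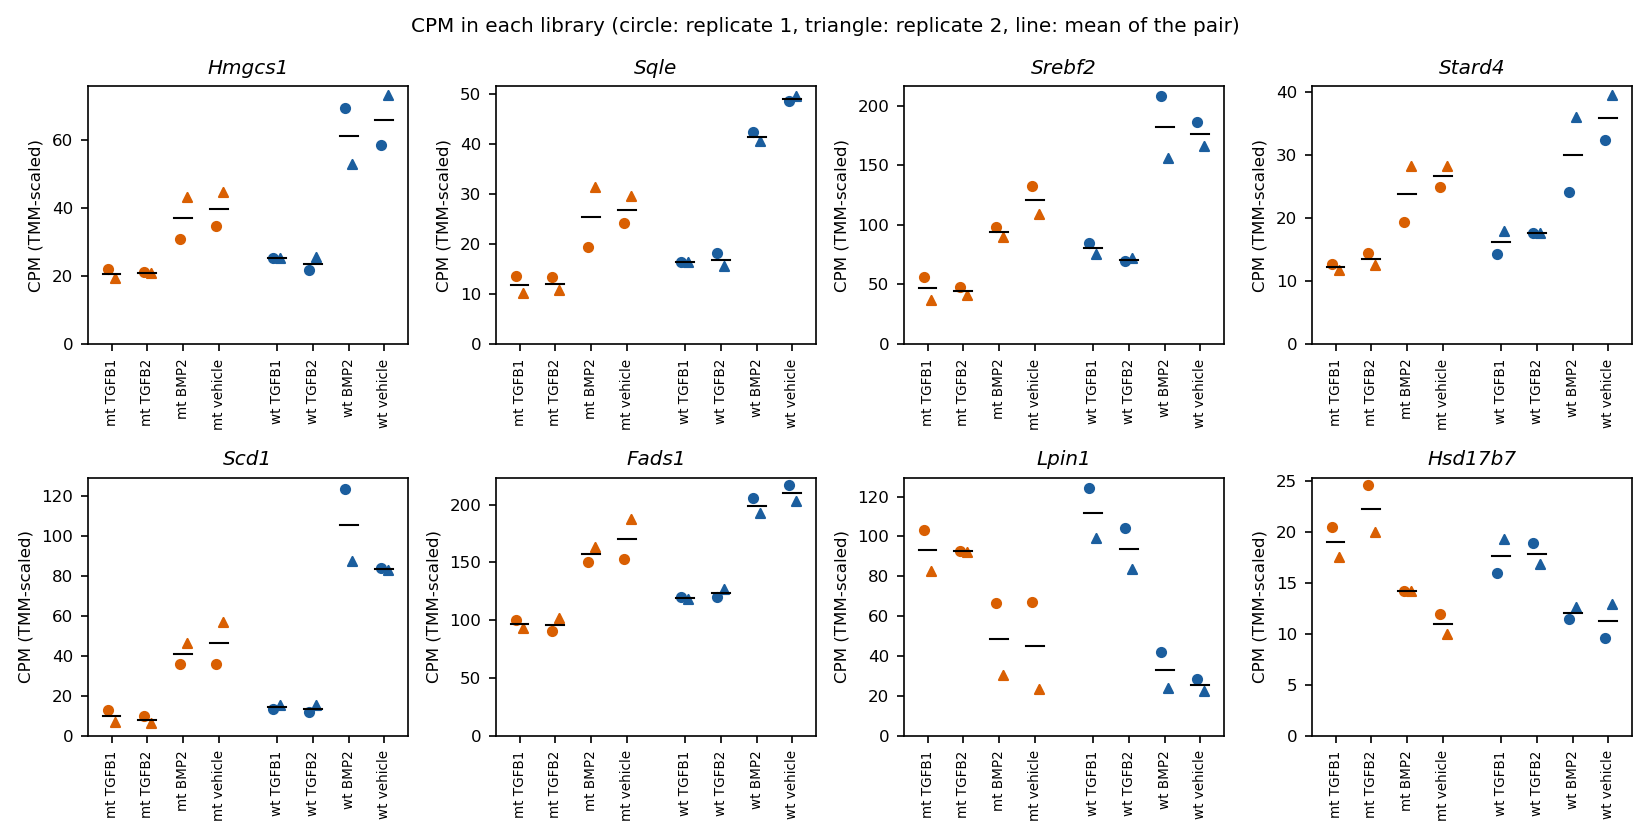
CPM of 8 genes in each library, with circles for replicate 1, triangles for replicate 2 and a line at the mean of each pair, mt groups in orange and wt groups in blue. For Sqle the TGFB libraries lie at 10.2 to 18.2 CPM and the BMP2 and vehicle libraries at 19.5 to 49.7 CPM over both lines, and for Lpin1 the TGFB libraries are the higher ones in each line.

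Lss, lanosterol synthase, Cyp51, the lanosterol demethylase, and Tm7sf2, a sterol C14 reductase, were called in wt cells and not in mt cells. Lss had 14.0 and 10.9 CPM with TGFB1, 14.7 and 14.0 CPM with TGFB2, 19.6 and 14.6 CPM with BMP2, and 19.1 and 13.0 CPM in vehicle in mt cells. In wt cells Lss had 14.7 and 13.5 CPM with TGFB1, 14.0 and 12.5 CPM with TGFB2, 29.1 and 21.4 CPM with BMP2, and 25.9 and 24.5 CPM in vehicle. The mt groups overlapped and the wt TGFB libraries lay below the other wt libraries. Its wt log2 fold changes of -0.84 ± 0.25 with TGFB1 (adjusted p = 0.035) and -0.93 ± 0.25 with TGFB2 (adjusted p = 0.021) lost the call without any 1 of the 4 libraries compared, at adjusted p of 0.085 to 0.17 and 0.072 to 0.13. In mt cells Lss had -0.37 ± 0.25 and -0.16 ± 0.25.

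Cyp51 had 32.9 and 29.0 CPM with TGFB1, 31.0 and 34.8 CPM with TGFB2, 37.1 and 55.5 CPM with BMP2, and 36.8 and 60.9 CPM in vehicle in mt cells. In wt cells Cyp51 had 32.8 and 37.8 CPM with TGFB1, 33.5 and 39.9 CPM with TGFB2, 45.0 and 72.1 CPM with BMP2, and 60.8 and 91.9 CPM in vehicle. TGFB libraries were the lowest 4 of each line, and replicate 2 exceeded replicate 1 in all groups but mt TGFB1. Its log2 fold change was -0.66 ± 0.32 with TGFB1 (adjusted p = 0.19, blocked 0.037) and -0.57 ± 0.32 with TGFB2 (adjusted p = 0.26) in mt cells. For Cyp51 in wt cells the log2 fold change was -1.11 ± 0.32 with TGFB1 (adjusted p = 0.029) and -1.06 ± 0.32 with TGFB2 (adjusted p = 0.035). The wt calls were lost without wt vehicle replicate 2 (0.22 with TGFB1, 0.25 with TGFB2), wt TGFB1 replicate 1 (0.17) or 2 (0.10), and wt TGFB2 replicate 1 (0.20) or 2 (0.10).

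Tm7sf2 was a weakly covered member, with 2.06 and 1.69 CPM with TGFB1, 1.84 and 2.43 CPM with TGFB2, 1.67 and 5.18 CPM with BMP2, and 2.98 and 5.00 CPM in vehicle in mt cells. In wt cells Tm7sf2 had 2.36 and 2.87 CPM with TGFB1, 1.70 and 3.18 CPM with TGFB2, 4.22 and 5.30 CPM with BMP2, and 8.05 and 6.14 CPM in vehicle. The wt TGFB libraries were below the other wt libraries, and the mt groups overlapped. Its wt values of -1.43 ± 0.46 (adjusted p = 0.0497) with TGFB1 and -1.52 ± 0.47 (adjusted p = 0.038) with TGFB2 lost the call without any 1 of the 4 libraries compared, at adjusted p of 0.10 to 0.225 and 0.0565 to 0.255. With RLE scaling the TGFB1 call was also lost. In mt cells the values were -1.11 ± 0.48 (adjusted p = 0.15, blocked 0.047) and -0.90 ± 0.48 (adjusted p = 0.23). A same-strand entry, 1110014N23Rik, overlaps Tm7sf2 with 10811 reads against 1143 over the 16 libraries. Reads of the pair could be shared, since no source used here gives the counting rules.

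Hsd17b7, the 3-keto-steroid reductase of the sterol route, was the sterol gene that rose. It had 20.4 and 17.5 CPM with TGFB1, 24.6 and 20.0 CPM with TGFB2, 14.2 and 14.2 CPM with BMP2, and 11.9 and 10.0 CPM in vehicle in mt cells. In wt cells Hsd17b7 had 15.9 and 19.3 CPM with TGFB1, 18.9 and 16.8 CPM with TGFB2, 11.4 and 12.7 CPM with BMP2, and 9.57 and 12.9 CPM in vehicle. All TGFB libraries of each line lay above its BMP2 and vehicle libraries. The log2 fold change in mt cells was 0.79 ± 0.22 with TGFB1 (adjusted p = 0.031) and 1.02 ± 0.22 with TGFB2 (adjusted p = 0.0081). In wt cells the values were 0.64 ± 0.22 (adjusted p = 0.0625, blocked 0.023) and 0.66 ± 0.22 (adjusted p = 0.054, blocked 0.021). The mt TGFB1 call was lost without any 1 of the libraries compared (adjusted p of 0.051 to 0.15) and with no low-count filter (0.093), and the TGFB2 call without mt TGFB2 replicate 1 (0.070) or mt vehicle replicate 2 (0.064).

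Fdft1, Nsdhl, Ebp, Sc5d and Dhcr7, which complete the route, were not called with TGFB. Nsdhl, a sterol dehydrogenase, had -0.96 ± 0.33 with both ligands in wt cells (adjusted p = 0.0611 and 0.0605, blocked 0.012 and 0.011) and -0.34 ± 0.33 and -0.05 ± 0.33 in mt cells. In wt cells with TGFB1 the blocked test also called Fdft1 (-0.87 ± 0.44, blocked adjusted p = 0.033), the squalene synthase gene, and Dhcr7 (-0.49 ± 0.20, blocked 0.047), the last reductase of the route. The other values of Fdft1 and Dhcr7 lay between -0.41 and 0.40. The Fdft1 entry overlaps Ctsb, and the Dhcr7 entry AK215526, each on the other strand. Ebp, a sterol isomerase, and Sc5d, a sterol desaturase, lay between -0.47 and 0.29 in all 4 comparisons.

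Of the carriers, Stard4, which moves cholesterol between membranes in the cytosol, fell in both lines. It had 12.8 and 11.7 CPM with TGFB1, 14.4 and 12.6 CPM with TGFB2, 19.5 and 28.2 CPM with BMP2, and 25.0 and 28.3 CPM in vehicle in mt cells. In wt cells Stard4 had 14.3 and 18.02 CPM with TGFB1, 17.7 and 17.6 CPM with TGFB2, 24.1 and 36.1 CPM with BMP2, and 32.3 and 39.6 CPM in vehicle. The TGFB libraries of each line were below all of its other libraries. Log2 fold changes were -1.12 ± 0.25 (adjusted p = 0.010) with TGFB1 and -0.98 ± 0.25 (adjusted p = 0.018) with TGFB2 in mt cells, and -1.15 ± 0.25 (adjusted p = 0.0070) and -1.03 ± 0.25 (adjusted p = 0.012) in wt cells. Each of these 4 calls was lost without vehicle replicate 2 of its line, at adjusted p of 0.056 and 0.083 in mt cells and 0.064 and 0.095 in wt cells. The calls also needed mt TGFB1 replicate 2 (0.091 without it), mt TGFB2 replicates 1 and 2 (0.069 and 0.14), wt TGFB1 replicate 1 (0.079) and wt TGFB2 replicates 1 and 2 (0.080 and 0.077). Abca1, the exporter that loads cholesterol onto apolipoproteins, was not called. It had 98.0 and 108 CPM with TGFB1, 124 and 92.3 CPM with TGFB2, 163 and 125 CPM with BMP2, and 204 and 101 CPM in vehicle in mt cells. In wt cells Abca1 had 123 and 133 CPM with TGFB1, 122 and 110 CPM with TGFB2, 259 and 135 CPM with BMP2, and 146 and 113 CPM in vehicle. The duplicates differed 2.02-fold in mt vehicle, and the groups overlapped in both lines.

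In the fatty acid branch, the desaturases Scd1 and Fads1 fell with both ligands in both lines, and the elongase Elovl6 fell in 3 of the 4 comparisons, while Srebf1, Fasn and Acly were not called in any. In mt cells 3 of the 13 genes fell and none rose with either ligand. In wt cells 4 fell with TGFB1 and 3 with TGFB2, and 1, Lpin1, rose with both. The median log2 fold change of the 13 genes was -0.37 with each ligand in mt cells, -0.60 with TGFB1 in wt cells and -0.43 with TGFB2 in wt cells. For both branches together, 7 genes fell and 1 rose with each ligand in mt cells. With the block these counts were 11 and 2 for TGFB1 and 10 and 3 for TGFB2. In wt cells 13 fell and 1 rose with TGFB1 (20 and 3 with the block), and 12 fell and 1 rose with TGFB2 (17 and 3). Under the block the background of lower and higher calls was 16.8% and 15.7% for TGFB1 and 16.9% and 16.6% for TGFB2 in mt cells, and 15.6% and 17.9% for TGFB1 and 16.3% and 18.4% for TGFB2 in wt cells. When the fit held only the 2 groups compared, 0 of the 34 genes were called with TGFB1 in mt cells (1.88% of all genes) and 2 with TGFB2 (6.72%), while 16 with TGFB1 (20.0%) and 14 with TGFB2 (22.1%) were called in wt cells. Leaving out 1 library gave 2 called genes without mt TGFB1 replicate 2 and 3 without mt vehicle replicate 2 for TGFB1, and 3 to 4 without mt TGFB2 replicate 1, mt TGFB2 replicate 2 or mt vehicle replicate 2 for TGFB2. Leaving out 1 library left 6.85% to 14.6% of all genes called with TGFB1 and 7.54% to 15.3% with TGFB2 in mt cells. In wt cells it gave 6 without either TGFB1 library and 8 without wt vehicle replicate 2 for TGFB1, and 6 to 8 without any 1 library for TGFB2, where 8.98% to 10.9% of all genes were called with TGFB1 and 10.1% to 12.0% with TGFB2.

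Scd1, the stearoyl-CoA desaturase that makes monounsaturated fatty acids, had the largest fall of the 34 genes in all 4 comparisons. In mt cells Scd1 had 13.0 and 6.97 CPM with TGFB1, 9.95 and 6.10 CPM with TGFB2, 36.0 and 46.1 CPM with BMP2, and 35.7 and 56.9 CPM in vehicle. In wt cells Scd1 had 13.2 and 15.5 CPM with TGFB1, 11.9 and 15.2 CPM with TGFB2, 123 and 87.5 CPM with BMP2, and 83.8 and 83.0 CPM in vehicle. The 8 TGFB libraries lay at 15.5 CPM or less and the other 8 at 35.7 CPM or more. The log2 fold change was -2.23 ± 0.36 (4.68-fold lower, adjusted p = 0.0016) with TGFB1 and -2.54 ± 0.36 (5.82-fold lower, adjusted p = 0.00069) with TGFB2 in mt cells. For Scd1 in wt cells the log2 fold change was -2.54 ± 0.36 (5.80-fold lower, adjusted p = 0.00060) with TGFB1 and -2.62 ± 0.36 (6.15-fold lower, adjusted p = 0.00047) with TGFB2. Scd1 stayed called in all 4 comparisons without any 1 of the libraries compared. It lies on chromosome 19 from 44468939 to 44482199 (mm9, minus strand), and an entry on the other strand, BC114417, overlaps it with 837 reads against 11471. Scd2, its close relative in mouse, was not called, with values of -0.65 to -0.14 and SE of 0.47.

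Fads1, the delta-5 desaturase of polyunsaturated fatty acid synthesis, had 99.9 and 93.5 CPM with TGFB1, 90.3 and 102 CPM with TGFB2, 150.48 and 163 CPM with BMP2, and 153 and 188 CPM in vehicle in mt cells. In wt cells Fads1 had 120 and 118 CPM with TGFB1, 120 and 127 CPM with TGFB2, 206 and 192 CPM with BMP2, and 217 and 203 CPM in vehicle. The duplicates lay close together in the treated groups, and TGFB libraries were below the others in each line. Its log2 fold change was -0.82 ± 0.18 with TGFB1 (adjusted p = 0.0095) and -0.83 ± 0.18 with TGFB2 (adjusted p = 0.0082) in mt cells, and -0.82 ± 0.18 (adjusted p = 0.0079) and -0.77 ± 0.18 (adjusted p = 0.010) in wt cells. The TGFB1 calls were lost without mt TGFB1 replicate 2 (0.077) or mt vehicle replicate 2 (0.068), and without wt TGFB1 replicate 1 (0.053) or 2 (0.062) or wt vehicle replicate 1 (0.0515). The TGFB2 calls were lost without mt TGFB2 replicate 1 (0.082) or mt vehicle replicate 2 (0.060), and without wt TGFB2 replicate 1 (0.086) or 2 (0.056) or wt vehicle replicate 1 (0.063).

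Fads2, the delta-6 desaturase, had 101 and 90.5 CPM with TGFB1, 88.8 and 89.7 CPM with TGFB2, 168 and 161 CPM with BMP2, and 166 and 149 CPM in vehicle in mt cells. In wt cells Fads2 had 99.8 and 90.2 CPM with TGFB1, 109 and 80.7 CPM with TGFB2, 197 and 126 CPM with BMP2, and 242 and 155 CPM in vehicle. No TGFB library of a line overlapped with its BMP2 and vehicle libraries. It was called in wt cells, at -1.07 ± 0.27 with TGFB1 (adjusted p = 0.015) and -1.07 ± 0.27 with TGFB2 (adjusted p = 0.014). In mt cells the values were -0.72 ± 0.27 (adjusted p = 0.087, blocked 0.0099) and -0.82 ± 0.27 (adjusted p = 0.0525, blocked 0.0046). The wt calls were lost without wt vehicle replicate 1 (0.15 and 0.14), wt TGFB1 replicate 1 (0.054) or 2 (0.11), or wt TGFB2 replicate 2 (0.13).

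Elovl6, which extends palmitate, had 3.16 and 3.59 CPM with TGFB1, 5.05 and 3.53 CPM with TGFB2, 6.39 and 12.3 CPM with BMP2, and 7.198 and 11.9 CPM in vehicle in mt cells. In wt cells Elovl6 had 5.36 and 5.61 CPM with TGFB1, 6.38 and 6.58 CPM with TGFB2, 12.5 and 13.5 CPM with BMP2, and 10.1 and 14.7 CPM in vehicle. TGFB libraries were below the others in each line. The log2 fold changes were -1.50 ± 0.35 (adjusted p = 0.013) and -1.17 ± 0.35 (adjusted p = 0.038) in mt cells, and -1.18 ± 0.34 (adjusted p = 0.032) and -0.94 ± 0.34 (adjusted p = 0.076, blocked 0.019) in wt cells, with TGFB1 before TGFB2. The 3 calls were each lost without either TGFB library of the comparison or vehicle replicate 2 of the line, with adjusted p up to 0.10 and 0.27 in mt cells and 0.22 in wt cells. An entry named FAE covers nearly the same locus and holds nearly the same reads, 2407 against 2456, so the pair is 1 measurement.

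Lpin1, a phosphatidate phosphatase that makes the diacylglycerol used for triglycerides and phospholipids, was the gene of either branch that rose most in wt cells. It had 103 and 82.7 CPM with TGFB1, 92.8 and 92.2 CPM with TGFB2, 66.7 and 30.4 CPM with BMP2, and 66.9 and 23.5 CPM in vehicle in mt cells. In wt cells Lpin1 had 125 and 99.4 CPM with TGFB1, 104 and 83.4 CPM with TGFB2, 42.0 and 23.7 CPM with BMP2, and 28.6 and 22.4 CPM in vehicle. The TGFB libraries of each line were above its other libraries, and the duplicates of mt vehicle differed 2.85-fold. In wt cells it rose by 2.13 ± 0.48 with TGFB1 (4.39-fold, adjusted p = 0.0085) and 1.88 ± 0.47 with TGFB2 (3.68-fold, adjusted p = 0.015). In mt cells the values were 1.04 ± 0.46 with each ligand (adjusted p = 0.16 for both), with blocked adjusted p of 0.0076 and 0.0064. The wt calls were lost without wt vehicle replicate 2 (0.084 with TGFB1, 0.12 with TGFB2), and the TGFB2 call also without wt TGFB2 replicate 1 (0.083) or wt vehicle replicate 1 (0.063). Within replicate 2 of mt cells alone, Lpin1 stood at 82.7 CPM with TGFB1 and 92.2 CPM with TGFB2 against 23.5 CPM in vehicle.

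The core of fatty acid synthesis was not called. Fasn, fatty acid synthase, had 200 and 83.1 CPM with TGFB1, 171 and 115 CPM with TGFB2, 187 and 97.8 CPM with BMP2, and 266 and 101 CPM in vehicle in mt cells. In wt cells Fasn had 207 and 118 CPM with TGFB1, 169 and 106 CPM with TGFB2, 292 and 170 CPM with BMP2, and 227 and 157 CPM in vehicle. The TGFB libraries of each line overlapped its BMP2 and vehicle libraries. Replicate 1 exceeded replicate 2 in all 8 groups, by 1.45-fold to 2.63-fold. Its log2 fold changes of -0.48 to -0.24 had an SE of 0.55. Srebf1, the gene of SREBP-1, had 82.6 and 58.3 CPM with TGFB1, 71.2 and 57.3 CPM with TGFB2, 96.4 and 68.4 CPM with BMP2, and 102 and 64.5 CPM in vehicle in mt cells. In wt cells Srebf1 had 79.0 and 70.6 CPM with TGFB1, 74.9 and 67.0 CPM with TGFB2, 113 and 84.5 CPM with BMP2, and 103 and 77.3 CPM in vehicle. The groups overlapped in both lines, and its log2 fold changes were -0.37 to -0.24 with an SE of 0.29.

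Acaca, acetyl-CoA carboxylase, had 30.4 and 21.2 CPM with TGFB1, 26.9 and 22.3 CPM with TGFB2, 27.9 and 23.6 CPM with BMP2, and 40.5 and 29.5 CPM in vehicle in mt cells. In wt cells Acaca had 25.3 and 22.4 CPM with TGFB1, 23.6 and 23.3 CPM with TGFB2, 45.3 and 35.7 CPM with BMP2, and 35.6 and 37.2 CPM in vehicle. The wt TGFB libraries were below the other wt libraries, and the mt groups overlapped. The blocked test called it in wt cells (-0.61 ± 0.23 with TGFB1, blocked adjusted p = 0.011, and -0.64 ± 0.23 with TGFB2, 0.0091) and with TGFB2 in mt cells (-0.51 ± 0.24, 0.036), while the unblocked adjusted p of these 3 results was 0.078 to 0.17. Acss2, which makes acetyl-CoA from acetate, had all TGFB libraries above the others in each line, at 10.6 to 17.2 CPM against 6.36 to 8.77 CPM in mt cells and at 10.6 to 18.8 CPM against 4.97 to 8.01 CPM in wt cells. Its log2 fold changes were 0.77 ± 0.37 and 0.87 ± 0.37 in mt cells (adjusted p = 0.188 and 0.133, blocked 0.064 and 0.039), and 1.05 ± 0.36 and 0.99 ± 0.36 in wt cells (adjusted p = 0.064 and 0.079, blocked 0.011 and 0.016). The entry Gss overlaps Acss2 on the other strand with 13203 reads against 3557, and no source used here says whether counting used strand. Acly, ATP citrate lyase, lay at -0.32 to -0.10 in the 4 comparisons. Elovl5, an elongase of polyunsaturated fatty acids, had -0.50 ± 0.23 and -0.40 ± 0.23 in mt cells (blocked 0.026 and 0.077) and -0.19 ± 0.23 and -0.18 ± 0.23 in wt cells. Me1, malic enzyme, had -0.02 ± 0.22 and 0.21 ± 0.22 in mt cells, and -0.60 ± 0.22 (blocked 0.020) and -0.43 ± 0.22 (blocked 0.084) in wt cells.

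Counted without a test, all 4 TGFB libraries lay below all 4 BMP2 and vehicle libraries for 11 of the 34 genes in mt cells, where 16.4% of all genes tested did so, and for 19 in wt cells, where 17.1% did. The 19 were 12 sterol and 7 fatty acid genes, and the 11 were 6 and 5. The same 3 genes, Hsd17b7, Acss2 and Lpin1, were higher without overlap in each line, at a background of 16.5% in mt and 18.7% in wt cells. TGFB2 set against TGFB1 over both lines called 0 of the 34 genes, with 0 at an unadjusted p under 0.05, 0 in the blocked test and 0 with DESeq2, and 0.0% of all genes were called. The difference between the ligands ran from -0.20 ± 0.25 for Scd1 to 0.28 ± 0.25 for Elovl6.

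BMP2 called none of the 34 genes in either line. In mt cells the edgeR test called 0, with 1 at an unadjusted p under 0.05 (Me1, 0.48 ± 0.22, adjusted p = 1.0), against 0.0416% of all genes. In wt cells it called 0, with 0 at an unadjusted p under 0.05, against 0.0% of all genes. The blocked test and DESeq2 called 0 in both lines. Values ran from -0.44 for Acaca to 0.48 for Me1 in mt cells, and from -0.56 for Tm7sf2 to 0.61 for Abca1 in wt cells. The median of the sterol branch was -0.02 in mt cells and -0.23 in wt cells. The difference of the BMP2 response between the lines called 0 genes in the edgeR test, with 0 at an unadjusted p under 0.05 and 0 with the block and with DESeq2, at a background of 0.0%.

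In vehicle, sterol genes lay lower in mt than in wt cells, though the unblocked test called none of the 34. The edgeR test called 0, with 9 at an unadjusted p under 0.05, of which 8 were sterol genes, where 3.58% of all genes were called in either direction. The blocked test called 8, all lower in mt cells and all of the sterol branch, at a background of 3.7% for lower calls, and DESeq2 called 3, Sqle, Dhcr7 and Insig1, against 6.21% of all genes. Without mt vehicle replicate 2 the unblocked test called 2, against 5.06% of all genes. The 8 were Hmgcs1 (-0.73 ± 0.23), Pmvk (-0.72 ± 0.24), Fdps (-0.74 ± 0.25), Sqle (-0.87 ± 0.24), Lss (-0.66 ± 0.25), Sc5d (-0.62 ± 0.45), Dhcr7 (-0.74 ± 0.20) and Insig1 (-0.94 ± 0.28), with blocked adjusted p of 0.016 to 0.035 and unblocked adjusted p of 0.073 to 0.68. The median difference over the 21 sterol genes was -0.62, over the 13 fatty acid genes -0.19 and over all genes tested 0.02. Both mt vehicle libraries lay below both wt vehicle libraries for 14 of the 34 genes, 12 of them sterol genes, against 16.4% of all genes, and above them for 0 against 18.0% of all genes. Sqle shows the pattern, with 24.2 and 29.7 CPM in mt vehicle against 48.5 and 49.7 CPM in wt vehicle. Dhcr7 had 16.4 and 24.1 CPM in mt vehicle against 35.7 and 31.9 CPM in wt vehicle.

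Under TGFB, 1 of the 34 genes, Srebf2, was lower in mt than in wt cells. Averaged over TGFB1 and TGFB2, the median difference between mt and wt cells was -0.04 for the sterol genes, -0.12 for the fatty acid genes and 0.00 for all genes tested. Srebf2 was called at -0.72 ± 0.17 (adjusted p = 0.0195), with 37.0 to 56.7 CPM in the 4 mt libraries against 70.1 to 85.0 CPM in the 4 wt libraries and no overlap. Calls in either direction made up 8.19% of all genes and lower calls 4.56%. The Srebf2 call was lost, at adjusted p of 0.051 to 0.087, without mt TGFB1 replicate 2, mt TGFB2 replicate 1 or 2, wt TGFB1 replicate 1 or 2, or wt TGFB2 replicate 2. The blocked test called 4 lower, Srebf2, Sqle, Elovl5 and Elovl6, against 10.9%, and 1 higher, Me1, against 10.3%. DESeq2 called 2, Srebf2 and Fads1, against 12.1% of all genes. All 4 mt libraries lay below all 4 wt libraries for 6 genes against 11.8% of all genes, and above them for 1, Me1, against 10.8%.

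**Figure D3:**
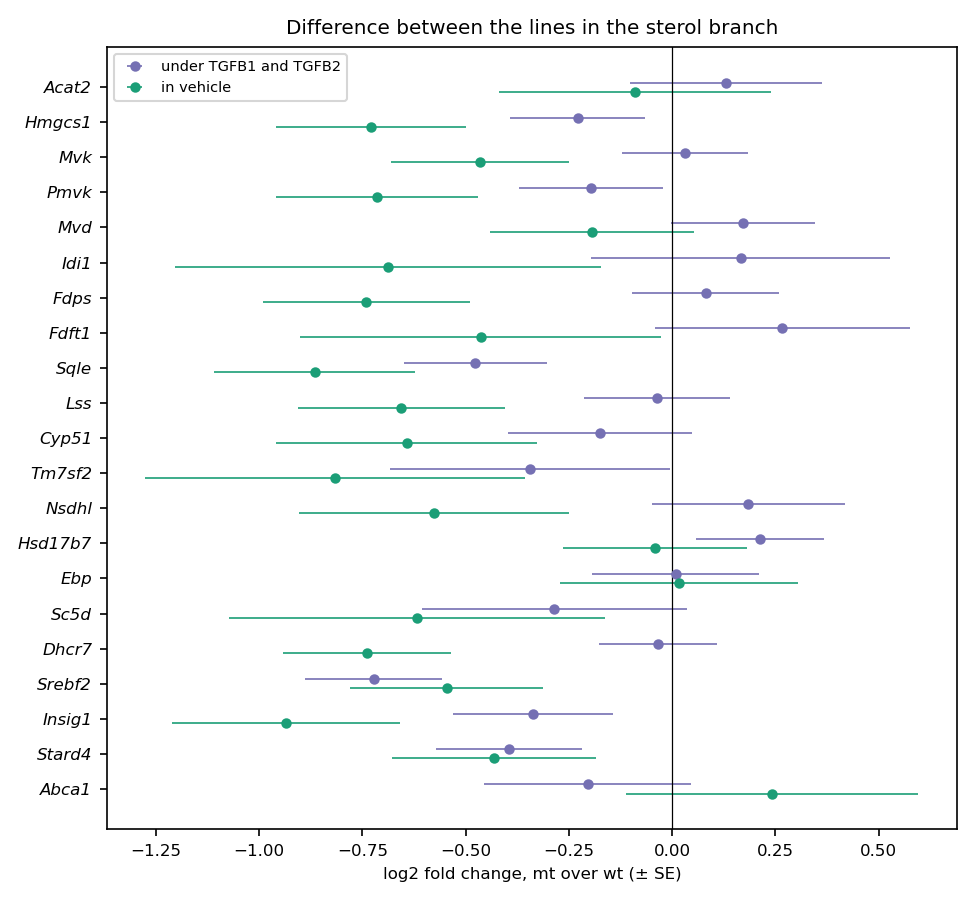
Log2 fold change of mt over wt cells (± SE) for the 21 sterol genes, in purple averaged over TGFB1 and TGFB2 and in green in vehicle (n = 2 libraries per group). Most green points lie left of 0, with a median of -0.62, and most purple points near 0, with a median of -0.04.

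The difference of the TGFB response between the lines, taken as the mean response to TGFB1 and TGFB2 in mt cells minus that in wt cells, was itself tested and called 0 of the 34 genes. The edgeR test had 3 genes at an unadjusted p under 0.05, namely Fdps (0.82 ± 0.31, adjusted p = 0.447), Dhcr7 (0.70 ± 0.25, adjusted p = 0.395) and Me1 (0.61 ± 0.27, adjusted p = 0.586). The blocked test called 0 with 11 at an unadjusted p under 0.05, DESeq2 called 0, and 0.184% of all genes were called. So the genes called in wt cells and not in mt cells are not shown to respond differently. The median difference was 0.47 over the 21 sterol genes, 0.00 over the 13 fatty acid genes and -0.04 over all genes tested. Of the 21 sterol genes, 18 lay above 0, against 7695 of all 16835 genes. The difference of the BMP2 response had a similar lean, with 19 of 21 sterol genes above 0, against 8095 of all 16835 genes. Its median over the sterol genes was 0.28. These values share the vehicle libraries with the comparison of the lines in vehicle, so they are not a separate measurement of it. Among the members called in both lines, the difference was -0.18 ± 0.29 for Srebf2, 0.50 ± 0.28 for Hmgcs1, 0.39 ± 0.30 for Sqle and 0.19 ± 0.42 for Scd1.

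Between the replicates, the members differed in 1 direction about as often as all genes did. Replicate 1 was higher than replicate 2 in 8 of 8 groups for Acat2, Mvd, Lss, Srebf1, Fasn and Lpin1, that is 6 of 34 genes against 14.1% of all genes tested. Replicate 2 was higher in 8 of 8 groups for Fdft1, Ebp and Sc5d, 3 of 34 genes against 13.4%. For Lpin1 the ratio of replicate 1 to replicate 2 ran from 1.01 to 2.85, and for Sc5d from 0.468 to 0.707. Without the 4 mt libraries of replicate 1, which hold the cardiomyocyte transcripts, the unblocked test called 5 of the 34 genes with each ligand in mt cells, against 9.01% of all genes with TGFB1 and 9.18% with TGFB2. In that fit Scd1, Srebf2, Sqle and Elovl6, of the 8 genes called with all libraries, kept their calls with both ligands. Hmgcs1, Hsd17b7, Stard4 and Fads1 lost theirs. Lpin1 was not called in the unblocked test with all libraries (adjusted p = 0.16 with each ligand). In mt replicate 2 Lpin1 had 82.7 CPM with TGFB1 and 92.2 CPM with TGFB2 against 23.5 CPM in vehicle.

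**Figure D4:**
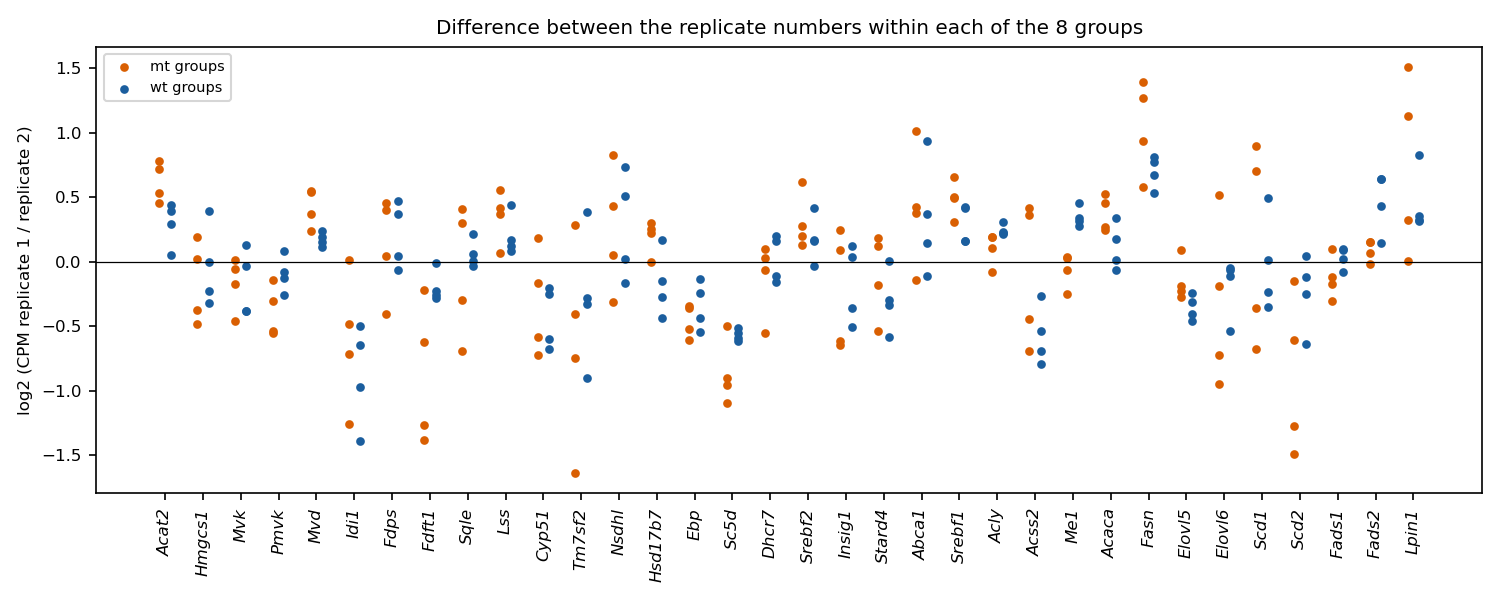
Log2 ratio of CPM in replicate 1 to replicate 2 for each gene, 1 point per group, with the 4 mt groups in orange and the 4 wt groups in blue. For Fasn and Acat2 all 8 points lie above 0, and for Fdft1, Ebp and Sc5d all 8 lie below 0.

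Other genes of the same pathways were read from lists of genes that are not members, and each pair of log2 fold changes gives TGFB1 and then TGFB2. Apoe, the apolipoprotein that accepts exported cholesterol, fell by 2.33 ± 0.34 and 2.38 ± 0.34 in mt cells and by 2.15 ± 0.33 and 2.05 ± 0.33 in wt cells, with adjusted p of 0.0012 or less. Abcg1, an exporter of cholesterol and a target of the liver X receptors, rose by 2.50 ± 0.51 and 2.49 ± 0.51 in mt cells (adjusted p = 0.0059 and 0.0057) and by 3.79 ± 0.55 and 3.91 ± 0.55 in wt cells (adjusted p = 0.00067 and 0.00052). Abcg1 had 32.7 to 40.3 CPM in the 4 mt TGFB libraries against 2.96 to 12.1 CPM in the other mt libraries, and 20.5 to 28.8 CPM against 1.14 to 2.56 CPM in wt cells. Mylip, a ubiquitin ligase induced by the liver X receptors, fell in wt cells by 0.91 ± 0.26 and 0.87 ± 0.26 (adjusted p = 0.029 and 0.035), and both calls were lost without any 1 of the 4 libraries compared. Apoe was also lower in mt than in wt cells, with a log2 difference of -2.05 ± 0.33 in vehicle (adjusted p = 0.0060) and of -2.30 ± 0.24 under TGFB (adjusted p = 0.00013), and Stard3, a late endosomal cholesterol carrier, had a difference of -0.47 ± 0.13 under TGFB (adjusted p = 0.048). The vehicle difference of Apoe was lost, at an adjusted p of up to 0.070, without mt vehicle replicate 1 or wt vehicle replicate 2, and the Stard3 call was lost without any 1 of the 8 TGFB libraries.

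Genes of fatty acid breakdown were mixed. In mt cells 4 of the 19 genes tested rose under TGFB1 and 3 under TGFB2, and in wt cells 5 did under either ligand, while 1 fell in each comparison. Of all genes tested, 7.97% and 8.17% rose in mt cells and 10.8% and 11.1% in wt cells, TGFB1 before TGFB2. The shares that fell were 8.45% and 9.25% in mt cells and 8.21% and 9.03% in wt cells. Acadvl, the very long chain acyl-CoA dehydrogenase, rose by 1.92 ± 0.21 and 1.97 ± 0.21 in mt cells (adjusted p = 0.00014 and 0.00010) and by 1.49 ± 0.20 and 1.75 ± 0.21 in wt cells (adjusted p = 0.00051 and 0.00020). Pdk4, the kinase that shuts off pyruvate entry and favours fat use, rose by 1.67 ± 0.46 and 1.60 ± 0.46 in mt cells (adjusted p = 0.027 and 0.031) and by 3.75 ± 0.52 and 3.56 ± 0.52 in wt cells (adjusted p = 0.00054 and 0.00064). The mt calls of Pdk4 were lost without mt vehicle replicate 2 or any of the 4 mt TGFB libraries in the comparison it entered. In vehicle Pdk4 was higher in mt cells, by 2.82 ± 0.52 (adjusted p = 0.012), with 6.95 and 2.15 CPM in mt against 0.674 and 0.590 CPM in wt cells. That call was lost without mt vehicle replicate 1 or either wt vehicle library, with adjusted p up to 0.15. Etfdh, which feeds electrons from fat oxidation to the respiratory chain, rose by 0.74 ± 0.19 and 0.69 ± 0.19 in mt cells and by 0.80 ± 0.19 and 0.91 ± 0.19 in wt cells, with adjusted p of 0.0052 to 0.024. Etfdh stayed called without any 1 library with TGFB2 in wt cells, and lost the call in the others without mt vehicle replicate 2, mt TGFB1 replicate 2, either mt TGFB2 library, either wt TGFB1 library or either wt vehicle library. Acaa2, the mitochondrial thiolase, fell in all 4 comparisons, by 1.37 ± 0.35 and 1.35 ± 0.35 in mt cells and by 1.11 ± 0.35 and 1.23 ± 0.35 in wt cells, with adjusted p of 0.0196 to 0.044. The wt calls of Acaa2 were lost without any 1 of the libraries compared, and the mt calls without mt vehicle replicate 1, mt TGFB1 replicate 2 or either mt TGFB2 library. Ppard, a lipid-sensing nuclear receptor, rose with TGFB1 in mt cells (1.10 ± 0.32, adjusted p = 0.034) and with both ligands in wt cells (1.34 ± 0.32 and 1.25 ± 0.32). The Ppard calls were lost without vehicle replicate 2 of the line, either mt TGFB1 library, wt TGFB1 replicate 1 or either wt TGFB2 library. Of 27 other genes of fatty acid and lipid synthesis, 1 rose with each ligand in mt cells and none fell, while 1 rose with TGFB1 and 2 rose and 1 fell with TGFB2 in wt cells. Each of these counts is a smaller share of the 27 than was called over all genes in the same direction. Elovl1, an elongase of very long chains whose entry overlaps Cdc20 on the other strand, rose by 0.84 ± 0.20 and 0.75 ± 0.19 in mt cells. In wt cells Lpin3, a relative of Lpin1, rose by 2.11 ± 0.50 and 2.10 ± 0.50, and with TGFB2 Elovl4 rose by 1.97 ± 0.48 and Acsl3, which activates fatty acids, fell by 0.79 ± 0.23. The Elovl1 calls were lost without mt vehicle replicate 1, mt TGFB1 replicate 2 or either mt TGFB2 library, and the Lpin3 calls without wt vehicle replicate 1, wt TGFB1 replicate 2 or wt TGFB2 replicate 2. The Elovl4 and Acsl3 calls were lost without wt TGFB2 replicate 1 or wt vehicle replicate 2, and Acsl3 also without wt TGFB2 replicate 2.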

How the data were processed

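RNA-seq reads were aligned with TopHat or TopHat2 to mm9, per the submitters' processing notes, while versions, the gene counter and its use of strand are not given in the sources used here. Of the 34 member entries, 11 overlap another entry. Those not described above are Srebf1 (Rai1 and mKIAA1820), Me1 (AK046134) and Acaca (AK040794 and Gm11437). Among the other genes named, Acadvl overlaps Dvl2 and Mir324, and Acsl3 overlaps Utp14b. The authors deposited 2 tables, 1 per replicate number, with raw read counts per gene entry and the same values as rpm, that is reads per 1000000 of the library total. 2 entries of the replicate 2 table have no gene name and were left out. The 34 members and all other lists were chosen with earlier results of these data known.

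After filterByExpr and TMM scaling, counts were fitted by the robust quasi-likelihood F test of edgeR 4.0.16 in R 4.3.3, with 1 mean for each of the 8 groups, which left 8 residual degrees of freedom and a biological coefficient of variation of 0.274. P-values were adjusted by Benjamini and Hochberg over 16835 genes at a threshold of 0.05, and the SE is the size of the log2 fold change divided by the square root of F. The script was checked on simulated data. Depth of 6.41 to 31.81 (in units of 1000000 reads) limits members with few reads. Marker sums used the deposited rpm values, and levels used counts scaled by TMM to CPM. CPM values compare a gene between libraries and not genes with each other.

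Alternatives were RLE size factors, no low-count filter, the replicate number as a block, DESeq2 1.42.0, a fit of only the groups compared, single libraries dropped one by one, and the 4 mt libraries of replicate 1 left out. The labels give the replicate numbers. Deviations from the group means correlated above 0.1 between same-numbered libraries in 28 of 28 pairs of groups (0.163 to 0.756). Only the blocked test took the numbers to pair the samples, and the main fit held no term for them. The biological coefficient of variation was 0.274 in the main fit and 0.17 with the block. Genes with values per library are members called with the 5 smallest p in each direction, regulator, Fasn, Acaca, Sqle and carrier genes, and every member called between lines. Of the other lists, called genes with the 4 smallest p per list and comparison are named. Some genes of the list of other sterol genes are not reported here.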

Additional observations from a re-analysis of the deposited data

How the results depend on the processing

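With the replicate block, 13 members were called with TGFB1 and 13 with TGFB2 in mt cells (8 and 8 without it), 23 and 20 in wt cells (14 and 13 without it), 8 between mt and wt in vehicle (0 without it) and 5 under TGFB (1 without it). Calls over all 16835 genes also rose with the block, from 2763 to 5472 with TGFB1 and from 2933 to 5641 with TGFB2 in mt cells. In wt cells they rose from 3203 to 5630 and from 3383 to 5837. Between the lines they rose from 602 to 1739 in vehicle and from 1378 to 3561 under TGFB. The block ended no call of a member. With only the groups compared in the fit, 0 members were called with TGFB1 (1.88% of all genes) and 2 with TGFB2 (6.72%) in mt cells. With the 4 mt libraries of replicate 1 left out, each mt group held 1 library. The calls given above for that fit therefore rest on the spread within the wt groups, and the spread within mt groups was not measured in it. DESeq2 called 3 members between the lines in vehicle (6.21% of all genes) and 2 under TGFB (12.1% of all genes). Leaving out 1 library gave 2 to 8 called members for TGFB1 and 3 to 9 for TGFB2 in mt cells, 6 to 10 for TGFB1 and 6 to 8 for TGFB2 in wt cells, 0 to 2 between the lines in vehicle and 0 to 1 under TGFB, and the lone sample of a group is then assumed to vary like the other groups. The cause of these shifts was not tested, apart from the fewer samples of the fits with fewer libraries. Of the 44 called member results, 44 stayed called with DESeq2, 43 with RLE size factors, 43 with no low-count filter and 30 with only the groups compared, and none changed sign under any alternative run. Both BMP2 comparisons, both differences of response between the lines and the comparison of the ligands stayed at 0 called members under every alternative run.

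Duplicates and 1 line per genotype limit all tests. Depth bears most on Tm7sf2, which had 12 reads in its lowest library.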
